A study of Homo sapiens with 6 samples.

Results

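Long intergenic noncoding RNAs (lincRNAs) are transcripts that run between protein-coding genes and are not known to be translated. The group described here holds every gene whose single symbol in the platform annotation begins with LINC and a number and whose brightest probe set had a mean log2 level of 7.11 or more over the 6 arrays. It has 158 genes, of 840 LINC genes on the array and 19775 genes in all. One name that the selection leaves out had no probe set of its own among these 840. The genes were selected on their mean level, so the levels below are a description, and the rule itself does not use the difference between the treatments.

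The arrays hold L428 cells, an established Hodgkin lymphoma line, nucleofected with an inhibitor of miR-9 made of locked nucleic acid (LNA) or with a scrambled LNA and labelled 9 h, with 3 arrays per group. Both groups went through the same nucleofection, and no untransfected cells were analysed here. The labels number the replicates and do not tell whether each came from its own culture, and the p-values cover only the spread between these samples, which may be technical. Values are log2 RMA expression on Affymetrix HG-U133 Plus 2.0 arrays, and their number limits the precision. Differences are miR-9 LNA minus scrambled LNA on the log2 scale, with standard errors (SE) from limma and SDs over n = 3 arrays per group.

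LincRNAs are made by RNA polymerase II, capped and usually polyadenylated, and many stay in the nucleus, where the RNA exosome degrades those that are not retained or bound. Some act on neighbouring genes, some hold proteins together, and some in the cytoplasm pair with microRNAs. Most are expressed at low levels and in few cell types. MicroRNAs bind their targets through the seed at their 5′ end. The seed of the inhibited microRNA, as RefSeq gives it on GRCh38.p14, is in capitals (bases 2 to 8).
hsa-miR-9-5p: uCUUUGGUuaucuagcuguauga

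The promoters of 5 lincRNAs are shown for the direction of their arrays. LINC01215, LINC01003 and LINC00294 lay higher with the miR-9 LNA than with the scrambled LNA on every same-numbered pair of arrays. LINC01210 and LINC01875 lay lower on every such pair. In the whole group 30 lincRNAs lay higher and 39 lower on all 3 pairs, and these 5 promoters were picked with those values seen. Each runs from 250 bases before to 50 bases after the transcript start listed by RefSeq on GRCh38.p14, read 5′ to 3′ on the plus strand. Capitals mark GGGCGG (the GC box), CCAAT and their reverse complements. The regions are chr3:108125571-108125870 for LINC01215, chr7:152463874-152464173 for LINC01003, chr11:33075900-33076199 for LINC00294, chr3:137771661-137771960 for LINC01210 and chr2:545555-545854 for LINC01875.
LINC01215: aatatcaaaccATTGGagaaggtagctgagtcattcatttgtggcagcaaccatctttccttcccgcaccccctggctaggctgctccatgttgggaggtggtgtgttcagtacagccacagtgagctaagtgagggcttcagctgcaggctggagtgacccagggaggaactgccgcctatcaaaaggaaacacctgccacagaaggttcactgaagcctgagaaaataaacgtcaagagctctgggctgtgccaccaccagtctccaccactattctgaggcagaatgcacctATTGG
LINC01003: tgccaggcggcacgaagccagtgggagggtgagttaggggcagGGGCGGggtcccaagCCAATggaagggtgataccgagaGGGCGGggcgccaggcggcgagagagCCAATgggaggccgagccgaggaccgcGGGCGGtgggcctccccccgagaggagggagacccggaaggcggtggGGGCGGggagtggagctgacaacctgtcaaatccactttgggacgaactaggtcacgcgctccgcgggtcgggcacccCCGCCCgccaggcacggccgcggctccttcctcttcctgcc
LINC00294: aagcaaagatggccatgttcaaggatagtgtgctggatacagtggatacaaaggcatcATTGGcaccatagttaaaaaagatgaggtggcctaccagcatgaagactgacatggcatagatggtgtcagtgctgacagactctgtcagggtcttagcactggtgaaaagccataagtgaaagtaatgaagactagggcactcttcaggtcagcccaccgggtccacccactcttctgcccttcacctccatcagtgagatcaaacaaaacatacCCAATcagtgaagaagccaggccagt
LINC01210: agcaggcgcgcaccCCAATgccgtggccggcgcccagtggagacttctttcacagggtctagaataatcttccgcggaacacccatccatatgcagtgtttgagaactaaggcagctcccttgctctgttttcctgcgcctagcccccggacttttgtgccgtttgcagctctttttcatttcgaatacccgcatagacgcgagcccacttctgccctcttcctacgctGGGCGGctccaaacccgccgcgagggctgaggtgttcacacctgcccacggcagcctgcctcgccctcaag
LINC01875: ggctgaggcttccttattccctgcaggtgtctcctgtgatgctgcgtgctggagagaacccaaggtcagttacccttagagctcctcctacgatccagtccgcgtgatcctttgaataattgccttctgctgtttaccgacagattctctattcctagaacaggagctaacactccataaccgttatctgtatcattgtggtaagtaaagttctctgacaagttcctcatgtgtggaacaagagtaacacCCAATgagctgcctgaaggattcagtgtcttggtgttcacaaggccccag

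Promoters were listed for 117 of the 158 lincRNAs. Their median GC content was 57.3%, against 65.0% for 9855 other tested genes with a listed promoter and 47.0% for 1463 other LINC promoters. GGGCGG, searched on both strands, occurred in 43 of the 117 (36.8%), against 68.8% of the other tested genes, 16.8% of the other LINC promoters and 44.6% of all 27305 promoters. By this measure the lincRNAs of this group lay between the other LINC promoters and the rest of the tested genes. Those 1463 promoters were not limited to the array, which holds only 682 other LINC genes. They are thus not a set of LINC genes measured as dim. CCAAT, also searched on both strands, occurred in 22 of 34 promoters (64.7%) of the brighter lincRNAs, those in the upper 3 of 5 level bins, and in 26 of 83 (31.3%) of the dimmer ones, against 35.7% of all promoters. TATAAA occurred in 10 of the 117 (8.55%) and in 12.0% of all promoters. TGACGTCA, the cAMP response element, occurred in 1 lincRNA promoter and in 1.98% of all promoters. The kappaB site, bound by NF-kB and searched as a fixed string, occurred in 0 of the 117 and in 0.194% of all promoters. So rare a string cannot tell whether lincRNA promoters lack sites for NF-kB. These are matches of letters in a 300-base window, and both the motifs and the split by level were chosen with the values known.

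Of the 158 lincRNAs, 157 were found in the RefSeq gene table, all 157 listed there as lncRNA, and 20 lay on chromosome 1, 11 on chromosome 7 and 7 on chromosome 21. Their brightest probe sets were mostly of the plain type, 131 of 158. Another 11 end in _s_at, 7 in _a_at and 9 in _x_at, a suffix that Affymetrix gives where probes may also bind unrelated transcripts. LINC00621 and LINC00623, both among the 8 brightest, were read by such _x_at probe sets, so their levels may include other transcripts. One probe set read 96 of the lincRNAs and several read 62.

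Levels were low for most and high for a few. Over the 6 arrays the mean log2 level ran from 7.11 to 11.62 with a median of 7.42, and 99 lincRNAs lay within 0.5 of the lower bound. Only 26 reached a level of 8 and 9 a level of 9. The median of all 12367 genes tested at their brightest probe set was 8.42. The lincRNAs just inside the bound were LINC00324 (7.113), LINC02086 (7.117) and LINC02870 (7.118). Just outside it were LINC02209 (7.109), LINC00943 (7.108) and LINC00475 (7.108). The bound lies at about the median level of all probe sets, and no test of detection was made. Of the fibroblast markers named below, 3 of 4 reached that median, with COL1A1 at 8.16, and 0 of 5 T cell markers did. A level near the bound therefore does not show that a transcript was present.

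LINC01215, which lies on chromosome 3 between CD47 and IFT57, was the brightest lincRNA. Its level was 11.93, 11.62 and 11.80 on the miR-9 LNA arrays and 11.38, 11.48 and 11.53 on the scrambled LNA arrays. The lowest miR-9 LNA array was above the highest scrambled LNA array. The difference was 0.32 ± 0.09 (SE, n = 3 per group, limma unadjusted p = 0.00822, adjusted p = 0.296), the largest positive difference among the 158 lincRNAs and also their lowest p, and it did not pass. After quantile normalization the difference was 0.12 (limma unadjusted p = 0.132) and the groups overlapped. CD47, which encodes a surface signal against phagocytosis, lies 34.0 kb to one side of LINC01215 and differed by 0.24 ± 0.13 (limma adjusted p = 0.425). IFT57, an intraflagellar transport gene 22.2 kb to the other side, differed by 0.24 ± 0.07 (limma adjusted p = 0.296). Both neighbours are bright, at 12.94 and 10.97, in the level bin where 95.9% of all genes had a higher mean. After quantile normalization CD47 was at 0.11 and IFT57 at 0.05.

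LINC02381, on chromosome 12 between HOXC4 and SMUG1, was next in level. It was at 10.63, 10.50 and 10.58 with the miR-9 LNA and 10.25, 10.47 and 10.48 with the scrambled LNA. The groups did not overlap, but the lowest miR-9 LNA array and the highest scrambled LNA array were close, and scrambled LNA replicate 1 was the lowest. The difference of 0.17 ± 0.08 (limma adjusted p = 0.379) was 0.09 without scrambled LNA replicate 1 and -0.016 after quantile normalization. LINC00621 was at 10.32, 10.18 and 10.18 with the miR-9 LNA and 10.11, 10.05 and 9.96 with the scrambled LNA, differing by 0.19 ± 0.07 (limma adjusted p = 0.316) with no overlap. After quantile normalization LINC00621 differed by 0.012.

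LINC00158, on chromosome 21, was at 9.92, 9.49 and 9.87 with the miR-9 LNA and 9.59, 9.57 and 9.71 with the scrambled LNA. Its miR-9 LNA replicate 2 was the lowest of the 6 arrays and the other two the highest, so the groups overlapped, and the difference was 0.14 ± 0.12 (limma adjusted p = 0.590). LINC00996, which lies near the immune GTPase gene GIMAP8, was at 9.24, 9.44 and 9.50 with the miR-9 LNA and 8.94, 9.35 and 9.39 with the scrambled LNA. Scrambled LNA replicate 1 was far below the other arrays for LINC00996, and the difference of 0.17 ± 0.13 (limma adjusted p = 0.554) was 0.025 without it. GIMAP8, 2.49 kb away, differed by 0.14 ± 0.17 (limma adjusted p = 0.689).

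LINC00667, on chromosome 18, was at 9.39, 9.22 and 9.34 with the miR-9 LNA and 8.97, 9.20 and 9.26 with the scrambled LNA, differing by 0.17 ± 0.09 (limma adjusted p = 0.416). All 4 of its probe sets had a higher mean with the miR-9 LNA, with differences of 0.17, 0.15, 0.14 and 0.009. LINC00667 starts 71 bases from LINC00526, which runs the other way from the same promoter region and differed by 0.10 ± 0.10 (limma adjusted p = 0.644). LINC00623 was at 9.34, 9.17 and 9.13 with the miR-9 LNA and 9.00, 9.07 and 9.06 with the scrambled LNA, differing by 0.17 ± 0.07 (limma adjusted p = 0.354) with no overlap.

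LINC00957, on chromosome 7, was the exception among the 8 brightest, with a difference near 0. It was at 9.21, 9.17 and 9.17 with the miR-9 LNA and 9.29, 9.15 and 9.16 with the scrambled LNA, differing by -0.014 ± 0.063 (limma adjusted p = 0.925). After quantile normalization its difference was -0.17 (limma unadjusted p = 0.109) and its groups no longer overlapped, with the miR-9 LNA lower. The order of levels among these probe sets is that of their signals and does not rank the transcripts against each other, since probe sets differ in brightness.

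**Figure D1:**
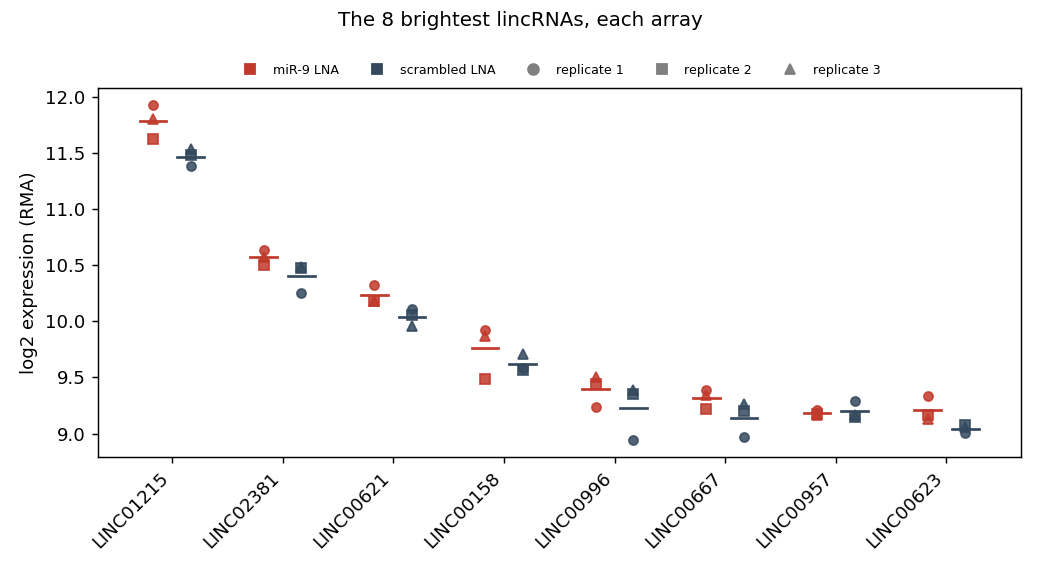
Log2 RMA expression (vertical axis) of the 8 brightest lincRNAs (horizontal axis, brightest first), with miR-9 LNA arrays in red left of scrambled LNA arrays in dark blue, a symbol shape per replicate number and a bar at each group mean (n = 3). LINC01215 is separated furthest, with miR-9 LNA arrays from 11.62 to 11.93 and scrambled LNA arrays from 11.38 to 11.53, while LINC00957 shows almost no separation.

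Across the group no lincRNA passed the threshold of an adjusted p under 0.05. Of the 158 lincRNAs, 71 had a higher and 87 a lower mean with the miR-9 LNA, and the median difference was -0.013. Over all genes tested 70.0% had a higher mean and the median difference was 0.08. No probe set passed limma's adjusted threshold, 0.0% of 27307 tested, and the lowest adjusted p over them was 0.296, the value LINC01215 also has. At a limma unadjusted p under 0.05, 7 lincRNAs were higher, where 17.4% of all genes tested were, and 4 were lower, where 0.598% were. There was no overlap between the groups for 14 lincRNAs in the higher direction, where 22.0% of all genes did not, and for 19 in the lower direction, where 3.83% did not. These shares over all genes mix levels, and counts by level are given below.

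The difference followed the level, among lincRNAs as among all genes, and most lincRNAs are dim. Tested probe sets were cut into 5 level bins of equal size, and the dimmest bin held 64 of the lincRNAs, then 48, 26, 16 and 4. From the dimmest bin to the brightest, the median lincRNA difference was -0.05, -0.013, 0.02, 0.12 and 0.18. The same medians over all genes tested were -0.04, -0.019, 0.05, 0.14 and 0.19. The number of lincRNAs with a higher mean was 17 of 64, 20 of 48, 16 of 26, 14 of 16 and 4 of 4, against 29.2%, 39.5%, 68.7%, 87.6% and 95.9% of all genes in those bins. After quantile normalization the lincRNA medians were -0.03, -0.018, -0.018, 0.0003 and -0.002, and those of all genes -0.015, -0.023, -0.006, 0.015 and 0.015. Over all genes 49.6% then had a higher mean, and 60 of the 158 lincRNAs. By bin these lincRNAs numbered 20, 18, 12, 8 and 2, against 41.2%, 37.1%, 47.8%, 55.2% and 57.7% of all genes.

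Split the same way, lincRNAs higher at a limma unadjusted p under 0.05 numbered 0 in the dimmest bin, then 1, 3, 1 and 2, where 0.0535%, 1.66%, 8.26%, 26.9% and 33.8% of all genes were. Those lower numbered 0, 1, 2, 1 and 0, where 1.34%, 0.954%, 0.958%, 0.248% and 0.0573% of all genes were. The groups did not overlap in the lower direction for 8, 6, 4, 1 and 0 lincRNAs of these bins. Over all genes the counts were 228 of 1870, 153 of 1991, 71 of 2191, 19 of 2823 and 3 of 3492. In the higher direction they were 1, 2, 4, 4 and 3 lincRNAs, against 40, 110, 340, 925 and 1305 of all genes. Scrambled LNA replicate 1 stood apart. It held the highest value of the 6 arrays for 48 of the 112 lincRNAs in the lower 2 bins and the lowest value for 20 of the 46 in the upper 3. Its 90th percentile over all probe sets was 9.28, against 9.53 to 9.57 on the miR-9 LNA arrays and 9.45 and 9.47 on the other scrambled LNA arrays. A spike-in, the dap probe set at the 3′ end, was at 10.45 on it and between 8.62 and 9.40 on the others. Without it 84 lincRNAs had a higher mean and 74 a lower one, the median was 0.008, 3 were higher at a limma unadjusted p under 0.05, where 12.9% of all genes were, and 3 were lower, where 1.16% were. These shares without that array mix levels too.

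**Figure D2:**
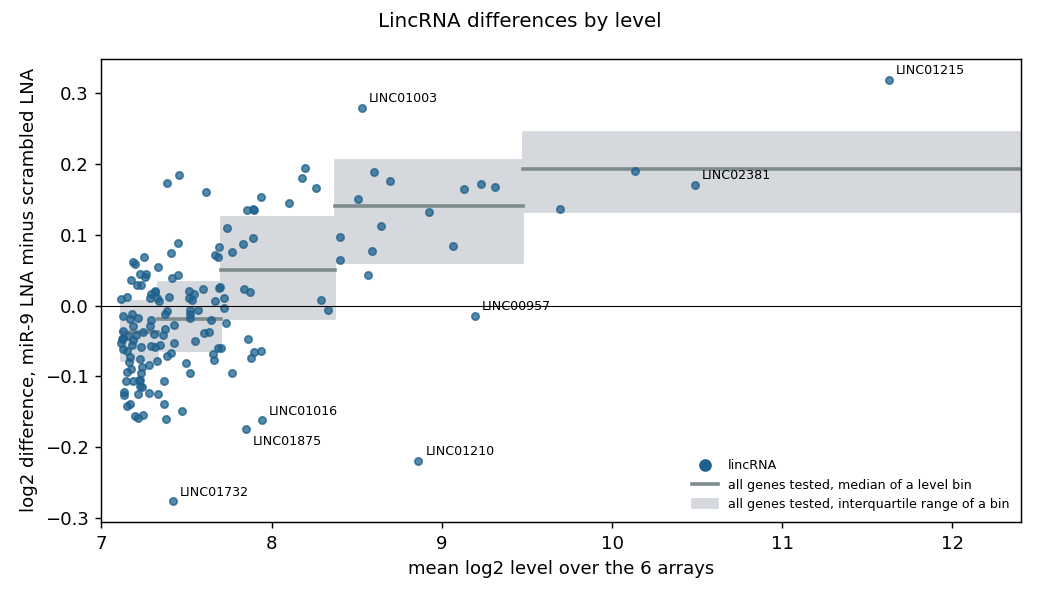
Log2 difference, miR-9 LNA minus scrambled LNA (vertical axis), against the mean log2 level over the 6 arrays (horizontal axis) for the 158 lincRNAs (points), with the median (grey line) and interquartile range (grey band) of all genes tested in each of 5 level bins; the brightest bin goes on to 14.95, past the axis. Most lincRNAs crowd at the left, where the grey medians are -0.04 and -0.019, and LINC01210, LINC01732, LINC01875 and LINC01016 lie below the bands of their bins.

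The 6 lincRNAs of smallest p in the higher direction were LINC01215, LINC01694, LINC00621, LINC00294, LINC01128 and LINC01004, and none passed. LINC01694, on chromosome 21 between the folate carrier gene SLC19A1 and the RNA-binding protein gene PCBP3, was at 8.24, 8.22 and 8.35 with the miR-9 LNA and 8.04, 8.07 and 8.17 with the scrambled LNA. The groups did not overlap and the difference was 0.18 ± 0.07 (limma unadjusted p = 0.0281, adjusted p = 0.315). Neither neighbour lay higher, with SLC19A1 at -0.0012 ± 0.13 and PCBP3 at -0.12 ± 0.07 (limma adjusted p = 0.997 and 0.434).

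LINC00294 lies on chromosome 11 between TCP11L1 and CSTF3, a subunit of the factor that cleaves mRNA 3′ ends. It was at 8.31, 8.30 and 8.42 with the miR-9 LNA and 8.11, 8.20 and 8.22 with the scrambled LNA, without overlap. The difference was 0.17 ± 0.06 (limma unadjusted p = 0.0329, adjusted p = 0.319), and 0.08 after quantile normalization, where the groups still did not overlap. TCP11L1, 2.59 kb away, differed by 0.20 ± 0.06 and CSTF3, 5.13 kb away on the other side, by 0.33 ± 0.12 (limma adjusted p = 0.296 and 0.303). At LINC00294 the lincRNA and both neighbours had a higher mean with the miR-9 LNA. In the level bins of TCP11L1 and CSTF3, 68.7% and 95.9% of all genes had one. After quantile normalization TCP11L1 was at 0.12 and CSTF3 at 0.16.

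LINC01128, on chromosome 1, was at 8.82, 8.73 and 8.79 with the miR-9 LNA and 8.50, 8.63 and 8.70 with the scrambled LNA, differing by 0.18 ± 0.07 (limma unadjusted p = 0.0409, adjusted p = 0.333) without overlap. Its second tested probe set differed by -0.08 ± 0.07 (limma adjusted p = 0.565), so the probe sets of LINC01128 do not share a direction. LINC01004, on chromosome 7, was at 7.46, 7.52 and 7.45 with the miR-9 LNA and 7.18, 7.36 and 7.36 with the scrambled LNA, differing by 0.17 ± 0.07 (limma unadjusted p = 0.0433, adjusted p = 0.337). Quantile normalization left LINC01004 at 0.19 (limma unadjusted p = 0.0358), and the miR-9 LNA arrays stayed above. The next probe set of LINC01004, below the level filter, was lower on all 3 miR-9 LNA arrays, with a difference of -0.15. LINC00662, on chromosome 19, was the other lincRNA higher at an unadjusted p under 0.05. Its brightest probe set differed by 0.20 ± 0.08 (limma unadjusted p = 0.0443, adjusted p = 0.339), and 4 of its 5 tested probe sets had a higher mean.

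The 6 of smallest p in the lower direction were LINC01210, LINC01875, LINC01732, LINC01016, LINC01208 and LINC01511, again with none past the threshold. LINC01210, on chromosome 3 in a stretch between NCK1 and CLDN18, was at 8.73, 8.72 and 8.81 with the miR-9 LNA and 9.09, 8.96 and 8.87 with the scrambled LNA. The groups did not overlap, and LINC01210 had the lowest difference among the 20 lincRNAs in the upper 2 bins. That difference was -0.22 ± 0.07 (limma unadjusted p = 0.0196, adjusted p = 0.299), and -0.35 after quantile normalization (limma unadjusted p = 0.00848). Without scrambled LNA replicate 1 it was -0.16. The other 2 probe sets of LINC01210 lay near 6.5, below the filter, and differed by 0.06 and -0.03, so the result comes from 1 probe set alone. NCK1, an adaptor of receptor signalling 820 kb away, differed by 0.22 ± 0.09 and the claudin gene CLDN18 by 0.08 ± 0.06 (limma adjusted p = 0.331 and 0.493).

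LINC01875, a gene of 863 bases on chromosome 2, was at 7.78, 7.78 and 7.72 with the miR-9 LNA and 7.88, 7.91 and 8.02 with the scrambled LNA. Every miR-9 LNA array lay below every scrambled LNA array. The difference was -0.17 ± 0.06 (limma unadjusted p = 0.0264, adjusted p = 0.313). It was -0.21 after quantile normalization (limma unadjusted p = 0.00734) and -0.20 without scrambled LNA replicate 1. Its tested neighbours lay on the other side of 0, ACP1 at 0.29 ± 0.12 and TMEM18 at 0.12 ± 0.14 (limma adjusted p = 0.341 and 0.681). Both are bright, at 11.13 and 9.62, in the level bin where 95.9% of all genes had a higher mean. After quantile normalization ACP1 was at 0.096 and TMEM18 at -0.041.

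LINC01732, on chromosome 1 beyond the immediate early gene IER5, was at 7.30, 7.22 and 7.32 with the miR-9 LNA and 7.79, 7.47 and 7.40 with the scrambled LNA. Scrambled LNA replicate 1 was well above the other arrays. The difference was -0.28 ± 0.11 (limma unadjusted p = 0.0322, adjusted p = 0.318), and -0.16 without that array. LINC01016, a lincRNA known as an oestrogen-responsive transcript in breast cancer cells, was at 7.91, 7.76 and 7.91 with the miR-9 LNA and 8.02, 7.98 and 8.07 with the scrambled LNA. Its difference was -0.16 ± 0.07 (limma unadjusted p = 0.0434, adjusted p = 0.337), and -0.21 after quantile normalization (limma unadjusted p = 0.0170). All 3 tested probe sets of LINC01016 lay lower without overlap, the other two by -0.14 ± 0.06 and -0.15 ± 0.06 (limma adjusted p = 0.355 and 0.356). LINC01208 and LINC01511 differed by -0.14 ± 0.06 each, also without overlap (limma adjusted p = 0.352 and 0.360).

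**Figure D3:**
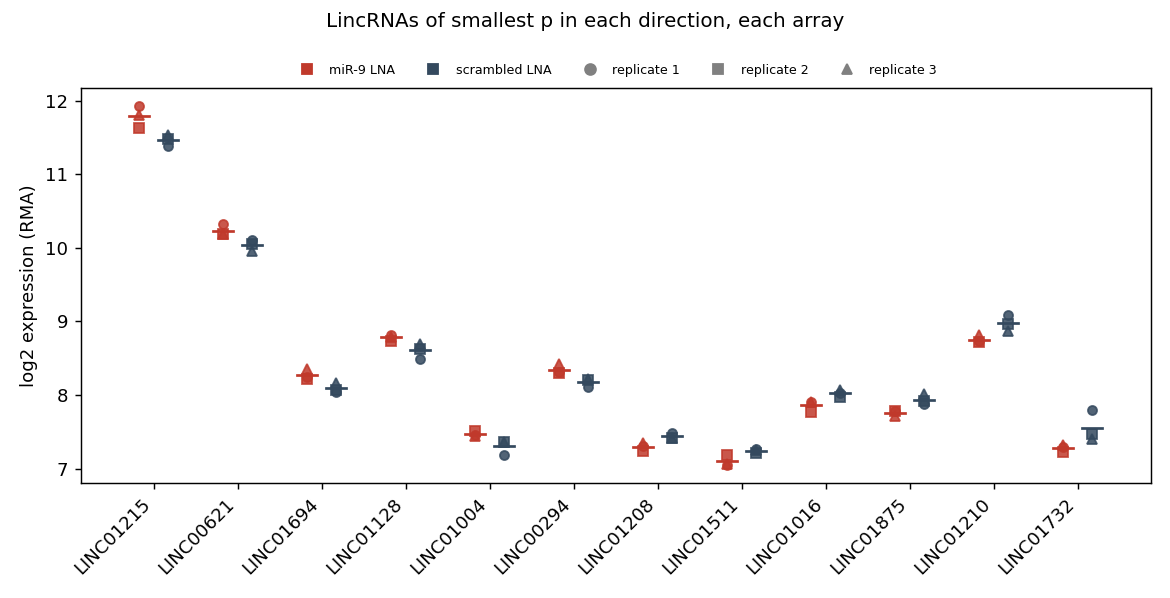
Log2 RMA expression (vertical axis) of the 6 lincRNAs of smallest limma p in each direction, ordered from the highest to the lowest difference (horizontal axis), with miR-9 LNA arrays in red left of scrambled LNA arrays in dark blue, a symbol shape per replicate number and bars at group means (n = 3). The groups do not overlap for any of the 12, and scrambled LNA replicate 1 of LINC01732, at 7.79, stands furthest from its group.

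The 5 lincRNAs of largest spread over the 6 arrays each had the highest array at the same replicate number in both groups. LINC00844, known as an androgen-responsive transcript in prostate cancer cells, was at 7.89, 7.58 and 8.30 with the miR-9 LNA and 7.52, 7.66 and 8.19 with the scrambled LNA. Replicate 3 was the highest array in both groups, and the difference between treatments was 0.13 ± 0.22 (limma adjusted p = 0.782). LINC00184 was at 8.75, 8.34 and 8.99 with the miR-9 LNA and 8.41, 8.29 and 8.82 with the scrambled LNA. LINC01943 was at 7.71, 7.72 and 8.20 with the miR-9 LNA and 7.64, 7.59 and 8.15 with the scrambled LNA. LINC01588 was at 7.17, 7.19 and 7.71 with the miR-9 LNA and 7.06, 7.22 and 7.63 with the scrambled LNA. In these too replicate 3 was highest in both groups.

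LINC01003, on chromosome 7 beside KMT2C, a histone H3 lysine 4 methyltransferase gene, ran otherwise. It was at 9.01, 8.60 and 8.41 with the miR-9 LNA and 8.48, 8.45 and 8.24 with the scrambled LNA, with miR-9 LNA replicate 1 far above the rest. The difference was 0.28 ± 0.15 (limma adjusted p = 0.416), and KMT2C, 28.1 kb away, differed by 0.27 ± 0.08 (limma adjusted p = 0.296). KMT2C was at 9.54, in the level bin where 95.9% of all genes had a higher mean. After quantile normalization LINC01003 was at 0.17 and KMT2C at 0.11. Replicate 3 was the highest array in both groups for 29 of the 158 lincRNAs (18.4%), against 21.5% of all genes tested. Replicate 1 was for 30 and replicate 2 for 6. The median SD over the 6 arrays was 0.08 for the lincRNAs and 0.11 for all genes tested.

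**Figure D4:**
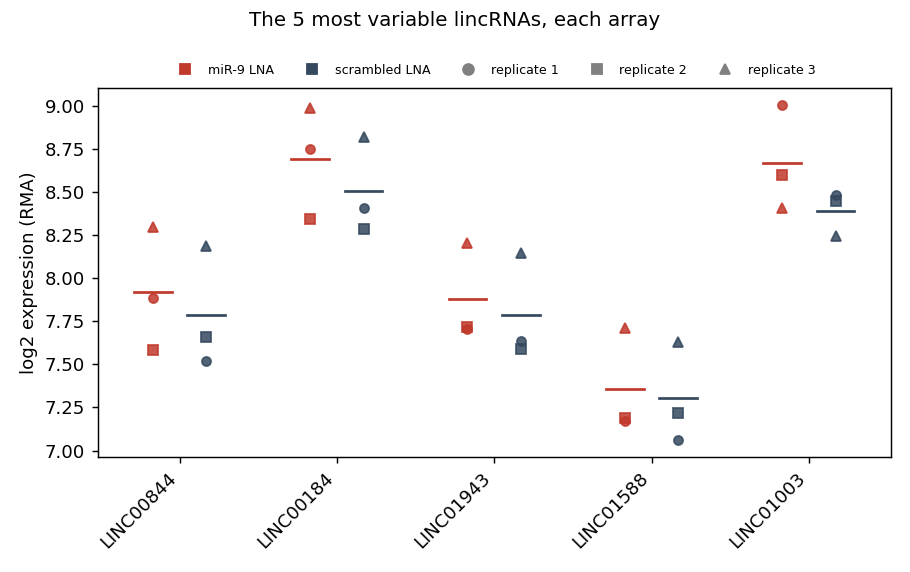
Log2 RMA expression (vertical axis) of the 5 lincRNAs with the largest SD over the 6 arrays (horizontal axis, largest first), with miR-9 LNA arrays in red left of scrambled LNA arrays in dark blue, a symbol shape per replicate number and bars at group means (n = 3). Replicate 3 (triangles) is highest in both groups for LINC00844, LINC00184, LINC01943 and LINC01588, and replicate 1 (circles) for LINC01003.

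Within same-numbered pairs of arrays, the miR-9 LNA array was the higher one in 3 of 3 pairs for 30 lincRNAs, in 2 for 42, in 1 for 47 and in 0 for 39. Pairs were not counted over all genes, of which 70.0% had a higher mean, so these counts do not set lincRNAs apart. With the replicate number as a block, 15 lincRNAs were higher at a limma unadjusted p under 0.05, where 25.9% of all genes were, and 7 were lower, where 0.784% were. None of the 158 passed an adjusted p under 0.05 with the block, and the lowest limma adjusted p among them was 0.159. After quantile normalization 1 lincRNA was higher at a limma unadjusted p under 0.05, where 1.88% of all genes were, and 4 were lower, where 2.34% were. These were counted among the 157 lincRNAs that passed the filter after that step. The arrays did not overlap for 6 lincRNAs in the higher direction, where 5.4% of all genes did not, and for 16 in the lower direction, where 6.4% did not. The sign of the difference was the same before and after that step for 137 of the 158. The shares over all genes with the block and after quantile normalization mix levels, and most lincRNAs are dim. Calls by level were not counted for these settings.

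**Figure D5:**
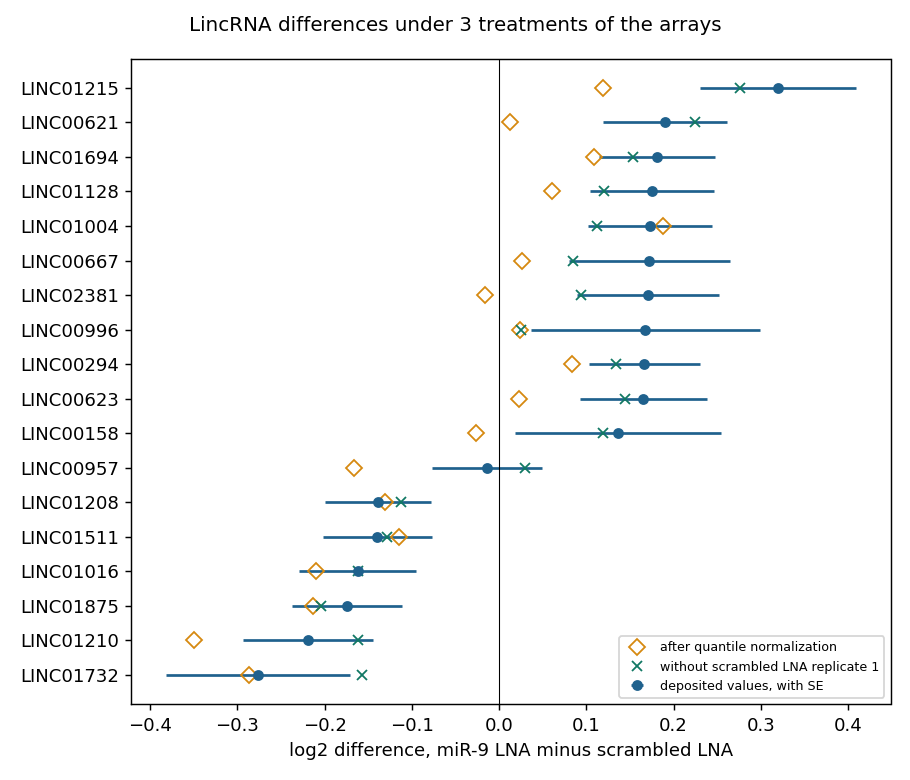
Log2 difference, miR-9 LNA minus scrambled LNA (horizontal axis), of the brightest lincRNAs and those of smallest p (vertical axis) in the deposited values with SE (blue points), after quantile normalization (open diamonds) and without scrambled LNA replicate 1 (crosses). The 6 lincRNAs at the bottom stay below 0 under all 3, while LINC02381 and LINC00158 cross 0 after quantile normalization and LINC00957 without the array.

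Several probe sets passed the filter for 23 of the lincRNAs, and in 9 of these the tested probe sets had differences of both signs, in 6 all were higher and in 8 all lower. LINC00537 had 0.08 ± 0.08 at its brightest probe set and -0.15 ± 0.08 and -0.14 ± 0.08 at the other two (limma adjusted p = 0.611, 0.397 and 0.436). LINC01355 had 0.16 ± 0.07 and -0.18 ± 0.12 (limma adjusted p = 0.366 and 0.504). LINC00205, which starts 157 bases from the fucosyltransferase gene POFUT2, had 0.18 ± 0.09 at its brightest probe set, without overlap of the arrays, and between -0.03 and 0.03 at its other 3 tested ones. LINC01089, an EGF-repressed transcript of breast cells, had 0.08 ± 0.07 and -0.07 ± 0.07 (limma adjusted p = 0.611 and 0.632). LINC02693 had differences from -0.004 to 0.11, LINC02210 of 0.15 and -0.002, and LINC00674 of -0.025 and 0.03.

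Some lincRNAs named from earlier knowledge lay close to 0. LINC00926, a transcript of mature B cells, was dim at 7.28, 7.39 and 7.20 with the miR-9 LNA and 7.44, 7.27 and 7.28 with the scrambled LNA, differing by -0.04 ± 0.08 (limma adjusted p = 0.817). LINC00467, which MYCN represses in neuroblastoma cells, differed by -0.04 ± 0.09, and LINC00339 by 0.03 ± 0.06 (limma adjusted p = 0.844 and 0.846). LINC00877 and LINC00528 were on the array at mean levels of 6.77 and 6.62, below the bound. Genes typical of Hodgkin lymphoma cells were bright, with 7 of 7 above the filter from CD40 at 9.26 to CCL17 at 12.70. Of B cell genes CD79A and CD22 were at 7.36 and 7.26, and CD79B, MS4A1 and POU2AF1 below the filter. Of the T cell markers 0 of 5 passed the filter, of monocyte markers 1 of 4 (CSF1R at 7.21) and of fibroblast markers 3 of 4, the brightest being COL1A1 at 8.16.

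A divergent start, a gene on the other strand that begins within 1000 bases of the lincRNA's start, was listed for 20 of the 117 lincRNAs with a promoter, and 11 of these partners were tested. The means of lincRNA and partner differed in the same direction in 7 of the 11, where LINC00667 with LINC00526 and LINC03068 with LINC02870 each count from both sides. LINC01134 differed by -0.06 and its partner C1orf174 by 0.24 ± 0.11, and LINC01424 differed by 0.03 and its partner UBE2G2, a ubiquitin-conjugating enzyme gene, by 0.18 ± 0.10 (limma adjusted p = 0.367 and 0.439). The partners at C1orf174 and UBE2G2 are brighter than their lincRNAs. Neighbours were sought among tested genes, leaving out those named LINC and a number and the noncoding classes sorted by symbol below. Of the 157 placed lincRNAs, 30 had such a gene within 10 kb on either side without overlapping it. The median gap to the nearest was 44.4 kb. Overlapping genes did not enter these gaps, and 6 lincRNAs overlapped such a gene.

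Other noncoding classes were sorted by symbol. Antisense RNAs (252 genes, median level 7.45) had a median difference of 0.007 with 139 higher and 113 lower, where the lincRNAs had -0.013. MicroRNA host genes (11 genes) had -0.03, intronic or overlapping transcripts (13 genes) 0.03, and the brighter small nucleolar RNA host genes (4 genes, median level 9.74) 0.17. No test of a difference between these classes was made. The factors that trim, degrade or retain nuclear noncoding RNA, which lincRNAs depend on, were bright, at a median level of 9.95. Of 34 listed names 29 were tested and 28 had a higher mean, MATR3 at -0.26 ± 0.13 being the exception. Its brightest probe set was dim, at 7.37, in a level bin where 39.5% of all genes had a higher mean. The median difference of the list was 0.20, and 0 passed an adjusted p under 0.05. In the brightest level bin, which holds that median level, 95.9% of all genes had a higher mean and their median difference was 0.19. At a limma unadjusted p under 0.05, 11 of the 29 were higher and 0 lower, where 33.8% and 0.0573% of all genes in the brightest bin were, and 17.4% and 0.598% of all genes tested. The shares of the list lie near those of the brightest bin. That bin begins at 9.48, and part of the list lies below it, such as DIS3 at 9.20 and PABPN1 at 8.05. In the bins of DIS3 and PABPN1, 26.9% and 8.26% of all genes were higher at that p. MTREX, the helicase that feeds RNA to the nuclear exosome, was at 0.39 ± 0.08, the exosome nuclease DIS3 at 0.23 ± 0.07 and the exosome subunit EXOSC10 at 0.25 ± 0.09 (limma adjusted p = 0.296, 0.296 and 0.303). All of these are among the 11 above. The exosome subunits EXOSC4 and EXOSC5, which are not, were at 0.09 ± 0.08 and 0.003 ± 0.10 (limma adjusted p = 0.608 and 0.992). After quantile normalization the list's median was 0.03, with 19 higher and 10 lower, and MTREX was at 0.20 (limma unadjusted p = 0.0207). DIS3 was then at 0.085 and EXOSC10 at 0.068 (limma unadjusted p = 0.231 and 0.574).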

How the data were processed

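Expression was measured in 6 samples, 3 miR-9 LNA and 3 scrambled LNA. The deposited values are log2 expression; per the submitters' processing notes, the authors used affy and RMA (versions not given in the sources used here). By its design text the study filtered out uninformative genes and applied limma. Of 54675 probe sets, 62 controls were left out, and those with a mean at or above the median of the rest (7.11) were tested with limma 3.58.1 in R 4.3.3 (lmFit, eBayes, two-sided, Benjamini-Hochberg, threshold 0.05). Genes were read at their brightest probe set. In the platform annotation 41091 probe sets had 1 symbol, 1801 several and 11721 none, and probe sets without exactly 1 symbol stayed in the fit unnamed. Sequences came from RefSeq tables (GRCh38.p14), and where a gene had several promoters listed (14 of 117) the first was taken.

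The members, lists and rules were chosen with earlier results of these data known. The rule names the 8 brightest members, the 6 of smallest p in each direction, the 5 of largest SD, members whose tested probe sets differ in sign, those beside the bound and a few known from earlier work. Neighbouring genes and promoters are descriptions. Same-numbered arrays deviated together (r = 0.231, 0.193 and 0.634 across probe sets). However, miR-9 LNA replicate 1 with scrambled LNA replicate 2 had r = 0.168, and miR-9 LNA replicate 2 with scrambled LNA replicate 1 had 0.077. The remaining combinations, each with a replicate 3, lay between -0.429 and -0.254. The data thus set only replicate 3 clearly apart and do not settle how replicates 1 and 2 pair. The labels state no pairing either. Alternatives covered the filter, normalization, variance model, array weights, the replicate block, the probe set rule, the call rule and each array left out in turn. The fit was tested on simulated data. Figures were drawn with matplotlib 3.10.9.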

Additional observations from a re-analysis of the deposited data

How the results depend on the processing

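No lincRNA passed a limma adjusted p under 0.05 in any of the 16 alternative fits, and the lowest adjusted p of a named lincRNA in any of them was 0.133. By call rule, 11 lincRNAs had an unadjusted p under 0.05 and 2 also differed by at least 1.2-fold. At an unadjusted p under 0.05, lincRNAs with a higher mean numbered 7, against 1 after quantile normalization and 1 after cyclic loess, 1 of the 26 left by a stricter filter, 15 with the replicate block, 4 with that block after quantile normalization (added after the data were examined), and 2 (without miR-9 LNA replicate 1) to 7 when an array was left out, with 3 without scrambled LNA replicate 1 or 2 and 4 without miR-9 LNA replicate 2. Those lower numbered 4, against 7 with no filter, 1 with the stricter filter, 8 with an intensity trend, 11 with array weights, 7 with the replicate block, 8 with that block after quantile normalization, and 1 (without miR-9 LNA replicate 2 or 3) to 5 when an array was left out, with 2 without miR-9 LNA replicate 1. The median difference, -0.013, was 0.15 for the 26 lincRNAs of the stricter filter, which are the bright ones by construction, and -0.024 to 0.008 with an array left out. The replicate block changed no adjusted call. Shares over all genes were counted only for the deposited values, quantile normalization, the replicate block and the fit without scrambled LNA replicate 1. Counts of lincRNAs under the other fits therefore cannot be set against all genes.

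Of 570 recomputed differences of named lincRNAs, 536 kept their sign and 34 did not, all of them uncalled. After quantile normalization and after cyclic loess the differences were -0.016 and -0.025 for LINC02381, -0.027 and -0.040 for LINC00158, -0.056 and -0.063 for LINC00537 and -0.0023 and -0.0061 for LINC02693; LINC00339 was at -0.0043 after the first; the replicate block left these quantile values as they were. With array weights LINC00957 was at 0.019, LINC00674 at 0.027 and LINC00926 at 0.038. With the mean of tested probe sets LINC00537 was at -0.069, LINC00674 at 0.0044 and LINC01355 at -0.0098. With an array left out the differences ranged from -0.040 to 0.029 for LINC00957, -0.053 to 0.33 for LINC00844, -0.077 to 0.27 for LINC01943, -0.087 to 0.037 for LINC00674, -0.12 to 0.22 for LINC01588, -0.089 to 0.016 for LINC00926, -0.11 to 0.058 for LINC00467, -0.085 to 0.0094 for LINC02870 and -0.017 to 0.034 for LINC02086. The cause was not tested. The number of arrays limits the precision.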
